A study of Mus musculus with 6 samples.

Results

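Hydrogen sulfide and methanethiol are small sulfur gases that mammalian cells both make and destroy. The genes examined here are the 10 that carry this metabolism among those named on the array, 10 of 36778 gene names tested: Cbs, Cth, Mpst, Ethe1, Tst, Suox, Cdo1, Mettl7a1, Mettl7b, and Sqrdl, whose newer name is Sqor. They were chosen by name for what their products do, and all 10 names had at least 1 probe, 15 probes in all. For Mettl7a1, the probe of its RefSeq mRNA was well above background on no array. Whether its brighter probes read Mettl7a1 mRNA or a neighboring gene model was not tested. Its place among the 10 in the counts below rests on the name given to those probes.

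The mRNA was measured in the left kidney of 8-week-old male C57BL/6J mice after 20 h of fasting, in 3 WT mice (replicates 2, 3, and 4) and 3 Selenbp1-KO mice (replicates 1, 2, and 3), on 1 one-color Agilent array per mouse. Fasting was common to both genotypes, and non-fasted kidneys were not on these arrays. The labels give the same strain for both genotypes, and the methods describe the C57BL/6J mice as purchased and the Selenbp1-KO mice as generated earlier, so litter and breeding source cannot be told apart from genotype. Whole kidney was used, so fewer cells of a type and less RNA per cell cannot be told apart.

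Selenbp1 encodes a selenium-binding protein that acts as a methanethiol oxidase, an enzyme that turns methanethiol into hydrogen peroxide, formaldehyde, and hydrogen sulfide. Hydrogen sulfide arises mainly from cysteine and homocysteine through Cbs, Cth, and Mpst. In mitochondria, Sqrdl begins its removal by passing its sulfur to glutathione, Ethe1 oxidizes the resulting persulfide to sulfite, Tst forms thiosulfate, and Suox oxidizes sulfite to sulfate. Cdo1 diverts cysteine towards taurine and sulfate. Mettl7a1 and Mettl7b belong to a family of thiol methyltransferases, and the human relatives methylate hydrogen sulfide to methanethiol and methanethiol to dimethyl sulfide. The comparison therefore asks whether loss of a methanethiol-consuming enzyme was accompanied by a change in the mRNA of the enzymes around it.

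None of the 10 genes passed the threshold of the study's methods, an unadjusted p under 0.05 (0 of 10, limma), compared with 7.99% of all gene names tested and 5.80% of the 19169 names well above background on every array of a genotype, to which all 10 belong. The methods' t-test also called 0 of the 10. For 9 of the 10 genes the 95% interval of the difference lay within 1.5-fold in either direction. The exception was Mpst, with an interval from 0.913-fold to 1.83-fold. In the same fit the signal of the probe of the targeted gene Selenbp1 was 7.80-fold lower in the Selenbp1-KO kidneys. Values below are log2 signals relative to the 75th percentile of the same array, and a difference is always Selenbp1-KO minus WT on that scale. Values are given for WT replicates 2, 3, and 4 and then for Selenbp1-KO replicates 1, 2, and 3, always in that order. Signals of different probes are not compared with each other, since each probe has its own brightness.

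The probes are 60-base DNA sequences, and what they match sets what each value measures. Of the 15 probes, 13 were well above background on all 6 arrays and 2 on none. The single Ethe1 probe (chr7:25393395-25393454, plus strand, mm9) and 1 of the 3 Sqrdl probes are shown first. Both are named for genes of the oxidation route and were well above background on all 6 arrays. Whether they also read other transcripts was not tested. The bases of the Sqrdl probe are spread over 1208 bases of the genome (chr2:122633810-122635017, plus strand, mm9), so it crosses a splice junction and reads spliced mRNA.
Ethe1 probe: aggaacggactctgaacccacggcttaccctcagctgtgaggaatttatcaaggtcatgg
Sqrdl probe across a junction: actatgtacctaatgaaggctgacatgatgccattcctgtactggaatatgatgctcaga
The last 30 bases of 3 other probes are shown because they hold AATAAA, the usual polyadenylation signal, with every copy in capitals. These letters stood on the printed strand of 5 of the 15 member probes. The probes of Mpst (chr15:78244373-78244432, plus strand) and Suox (chr10:128106967-128107026, minus strand) ended near it, and the last, annotated to NM_027334 of Mettl7a1 (chr15:100144718-100144777, plus strand), had a GC content of only 15.0% and was well above background on no array.
Mpst probe, bases 31 to 60: gcttgtttcattgttgggaAATAAAacatc
Suox probe, bases 31 to 60: gagtgctacttttaaaactattccAATAAA
Mettl7a1 probe of NM_027334, bases 31 to 60: tcatttAATAAAtgaaAATAAAtggtttct
A match to these letters is a description of the probe and does not show where transcripts end.

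**Figure D1:**
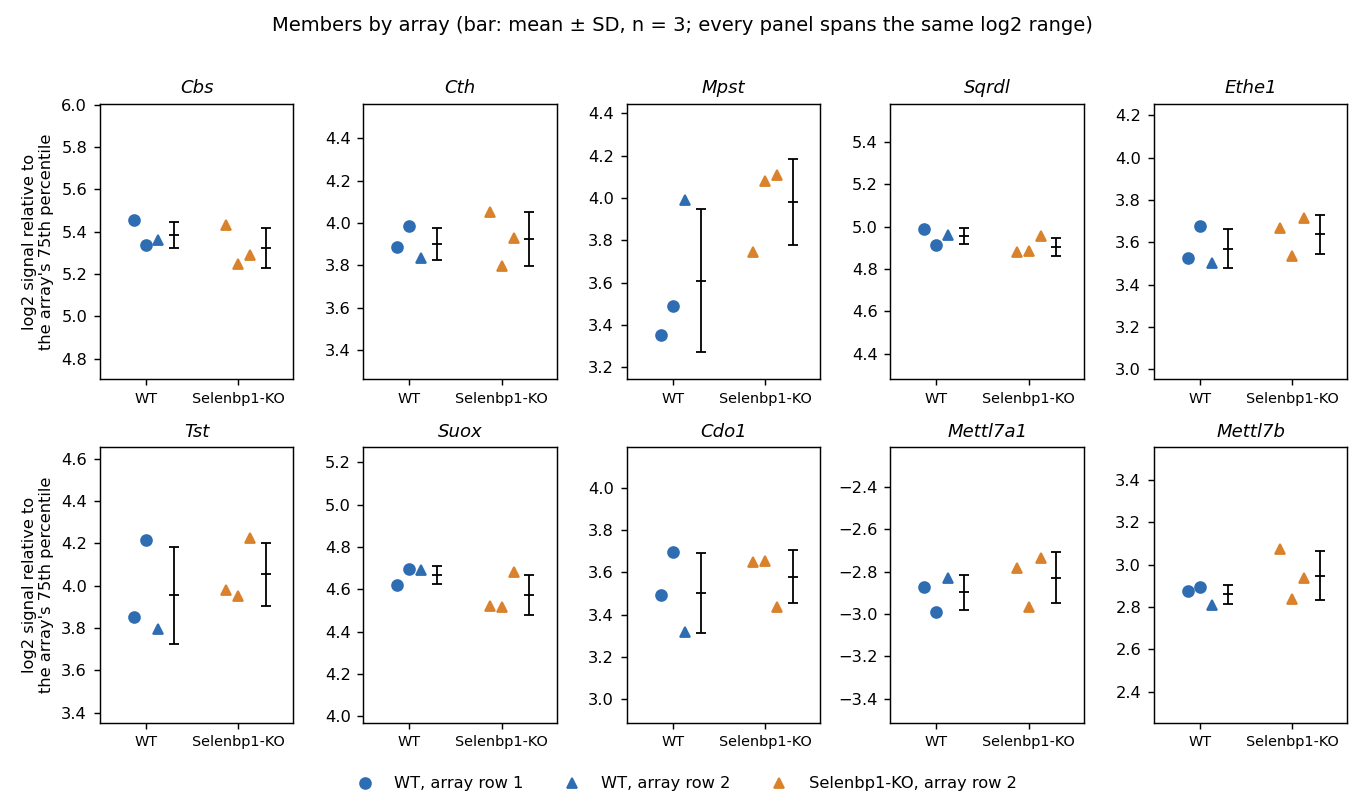
Log2 signal of each of the 10 genes (brightest probe) on the 6 arrays, relative to the array's 75th percentile. Points are mice, circles lie in array row 1 of the slide and triangles in row 2, and bars give the mean and SD of each genotype (n = 3). All panels span the same log2 range. The genotypes overlapped in all 10 panels, and Mpst spread most widely, over 0.76.

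The producers of hydrogen sulfide come first. Cbs, which condenses serine with homocysteine and releases hydrogen sulfide when cysteine takes the place of serine, had a log2 signal of 5.46, 5.34, and 5.36 in WT and 5.43, 5.25, and 5.29 in Selenbp1-KO mice. The highest array and the lowest differed by 0.21, and the lowest 2 came from the Selenbp1-KO group. The genotypes differed by -0.06 (standard error 0.10, 95% interval -0.32 to 0.19, limma adjusted p = 0.810). Cth, which splits cystathionine to cysteine and also makes hydrogen sulfide directly, had 3.88, 3.98, and 3.83 in WT and 4.05, 3.80, and 3.93 in Selenbp1-KO mice. The highest and the lowest of its 6 values were both from Selenbp1-KO arrays, and the difference of 0.02 (95% interval -0.25 to 0.30, limma adjusted p = 0.939) was smaller than the SD within either genotype, 0.08 and 0.13. Its sign turned with quantile normalization (-0.01), so no direction can be given for Cth.

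Mpst, which takes sulfur from 3-mercaptopyruvate and releases it as hydrogen sulfide with the help of thioredoxin, had the largest difference of the 10. The arrays read 3.35, 3.49, and 3.99 in WT and 3.75, 4.08, and 4.11 in Selenbp1-KO mice. WT replicate 4 lay above Selenbp1-KO replicate 1 and a little below the other two, so the groups overlapped. The means were 3.61 ± 0.34 and 3.98 ± 0.20 (SD, n = 3 each), and the difference of 0.37 (standard error 0.20, 95% interval -0.13 to 0.87) had an adjusted p = 0.355 from limma. WT replicates 2 and 3 lie in array row 1 of the slide, and WT replicate 4 and all 3 Selenbp1-KO replicates in row 2. Within row 2 the Selenbp1-KO mean differed from the 1 WT array by -0.01. Row 1 holds no Selenbp1-KO array, so the estimate with the row as a block is this same comparison, also -0.01. Every difference given below with the row as a block likewise rests on WT replicate 4 as the only WT array of row 2. Without WT replicate 4, which leaves each genotype in a row of its own, the difference was 0.56 and passed the unadjusted threshold (limma adjusted p = 0.0644), in a fit that called 31.3% of all probes. Without WT replicate 2 it was 0.24 and did not pass. The Mpst call depended on WT replicate 4.

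Both arrays of row 1 lay below all 4 of row 2 for Mpst alone among the 10 genes. The same order held for 8 of 37 further sulfur genes described below, among them the rhodanese-domain genes Tstd1, Tstd2, and Tstd3, and for 38.8% of all gene names (18.2% of the 19169 names well above background on every array of a genotype). Tstd1 had 3.34, 3.50, and 3.79 in WT and 3.75, 3.73, and 3.71 in Selenbp1-KO mice, so WT replicate 4 was its highest array. Tstd2 had 0.59, 0.62, and 1.04 in WT and 1.04, 0.80, and 0.82 in Selenbp1-KO mice. With the row as a block, and so against WT replicate 4 alone, the differences of Tstd1 and Tstd2 were -0.06 and -0.16 in place of 0.19 and 0.13. The part of the array row in these values was not tested.

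**Figure D2:**
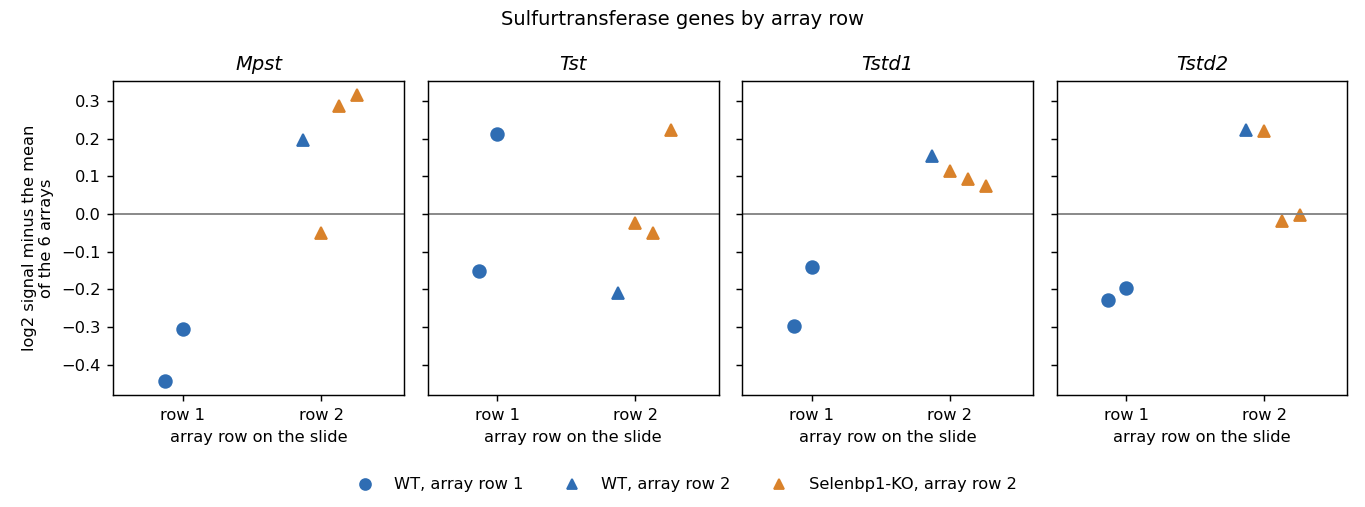
Log2 signal minus the mean of the 6 arrays (vertical axis) for Mpst, Tst, Tstd1, and Tstd2, by array row on the slide (horizontal axis). Each point is a mouse, and row 2 holds WT replicate 4 (blue triangle) and the 3 Selenbp1-KO mice (orange). For Mpst, Tstd1, and Tstd2 the 2 arrays of row 1 lie below the 4 of row 2, and for Tst they do not.

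Tst is the neighbor of Mpst on chromosome 15: the RefSeq table (GRCm38.p6) lists 0 genes between them, and the probes read opposite strands (Tst chr15:78230058-78230117, minus strand, mm9). Its product, rhodanese, is the classical sulfurtransferase that detoxifies cyanide to thiocyanate and forms thiosulfate. The log2 signal of Tst was 3.85, 4.22, and 3.79 in WT and 3.98, 3.95, and 4.23 in Selenbp1-KO mice. The 2 highest arrays, WT replicate 3 and Selenbp1-KO replicate 3, were 1 of each genotype. The difference was 0.10 (95% interval -0.28 to 0.48, limma adjusted p = 0.789). Mpst did not follow this order, since its WT replicate 3 was its second lowest value.

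The other genes of the oxidation route varied less. Sqrdl encodes the inner mitochondrial membrane enzyme that takes electrons from hydrogen sulfide into the ubiquinone pool. Its brightest probe had 4.99, 4.91, and 4.96 in WT and 4.88, 4.88, and 4.96 in Selenbp1-KO mice, and the 6 values spanned 0.11, the narrowest range of the 10 genes. The difference was -0.05 (95% interval -0.28 to 0.18, limma adjusted p = 0.834). The probe across the junction had 4.18, 4.22, and 3.95 in WT and 4.02, 3.98, and 4.12 in Selenbp1-KO mice, a difference of -0.08 (95% interval -0.36 to 0.21, limma adjusted p = 0.788). The remaining probe, annotated to ENSMUST00000176999 (chr2:122626424-122626483), was well above background on 0 arrays, and no fold is given for it.

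Ethe1, the mitochondrial persulfide dioxygenase whose loss in humans causes ethylmalonic encephalopathy, had 3.53, 3.68, and 3.50 in WT and 3.67, 3.54, and 3.71 in Selenbp1-KO mice. High and low arrays occurred in both genotypes, and the difference was 0.07 (95% interval -0.20 to 0.33, limma adjusted p = 0.789). Suox, the molybdenum enzyme that completes the route, had 4.62, 4.70, and 4.69 in WT and 4.52, 4.52, and 4.68 in Selenbp1-KO mice. Selenbp1-KO replicates 1 and 2 were its lowest arrays, whereas replicate 3 lay among the WT arrays. The difference was -0.10 (standard error 0.10, 95% interval -0.34 to 0.15, limma adjusted p = 0.675).

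Suox and Sqrdl were the only members to pass the threshold under another scaling. With quantile normalization the differences were -0.13 for Suox (limma adjusted p = 0.579) and -0.11 for Sqrdl (limma adjusted p = 0.573), and the authors' quantile normalized values gave nearly the same. The scaling also moved the median of all genes: the median difference over all gene names was 0.13 relative to the 75th percentile and 0.01 after quantile normalization. The median of the 10 members was 0.07 and 0.03 in the same order. Relative to the 75th percentile, the fold of Selenbp1-KO over WT was 0.936 for Suox and 0.967 for Sqrdl.

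**Figure D3:**
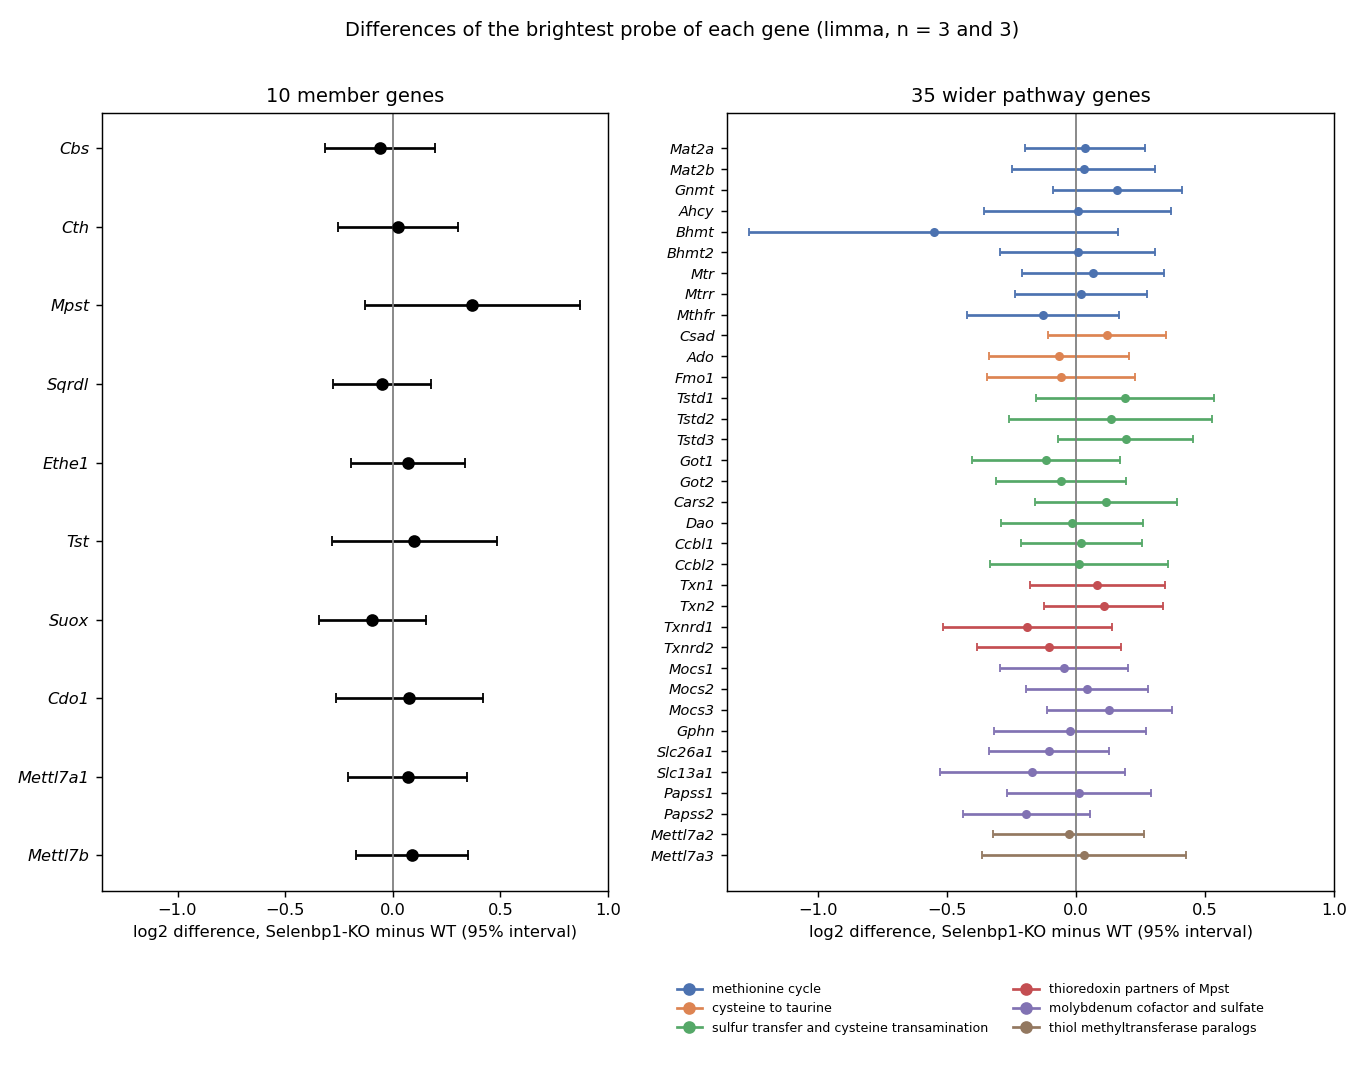
Difference of Selenbp1-KO minus WT in log2 units (points) with its 95% interval from limma (bars), for the 10 members (left) and for 35 of 37 further genes of sulfur metabolism (right, colored by list; Mat1a and Gadl1 are left out because not all of their arrays were well above background). All intervals drawn include 0. The widest interval of a member is that of Mpst, from -0.13 to 0.87.

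Cdo1, the dioxygenase that turns cysteine into cysteine sulfinate, was read by 2 probes. The brighter gave 3.49, 3.70, and 3.32 in WT and 3.65, 3.65, and 3.43 in Selenbp1-KO mice, and the dimmer 2.45, 2.67, and 2.08 in WT and 2.56, 2.52, and 2.36 in Selenbp1-KO mice. In both probes WT replicate 4 was the lowest and Selenbp1-KO replicate 3 the next lowest, and the differences were 0.08 (95% interval -0.26 to 0.42, limma adjusted p = 0.824) and 0.08 (-0.34 to 0.50, limma adjusted p = 0.851). Cdo1 is also abundant in adipocytes. The summed signal of 6 fat markers, in multiples of the 75th percentile, was 28.1, 48.6, and 12.8 in WT and 51.4, 123, and 21.7 in Selenbp1-KO mice, with the same 2 arrays lowest. The highest arrays were not the same: the sum was highest in Selenbp1-KO replicate 2, and both Cdo1 probes in WT replicate 3. Cfd gave the largest part of the sum on every array. The defining fat gene Adipoq had 0.55, 1.05, and -0.62 in WT and 1.66, 2.70, and 0.19 in Selenbp1-KO mice. All 6 fat markers had a difference above 0, as did 25174 of all 36778 gene names. The median of the 6 differences was 0.76, with a median standard error of 0.73. None passed the unadjusted threshold (0 of 6, limma), against 7.99% of all gene names, and with standard errors this large the test could miss such differences. The part of fat tissue in the Cdo1 signal was not tested.

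**Figure D4:**
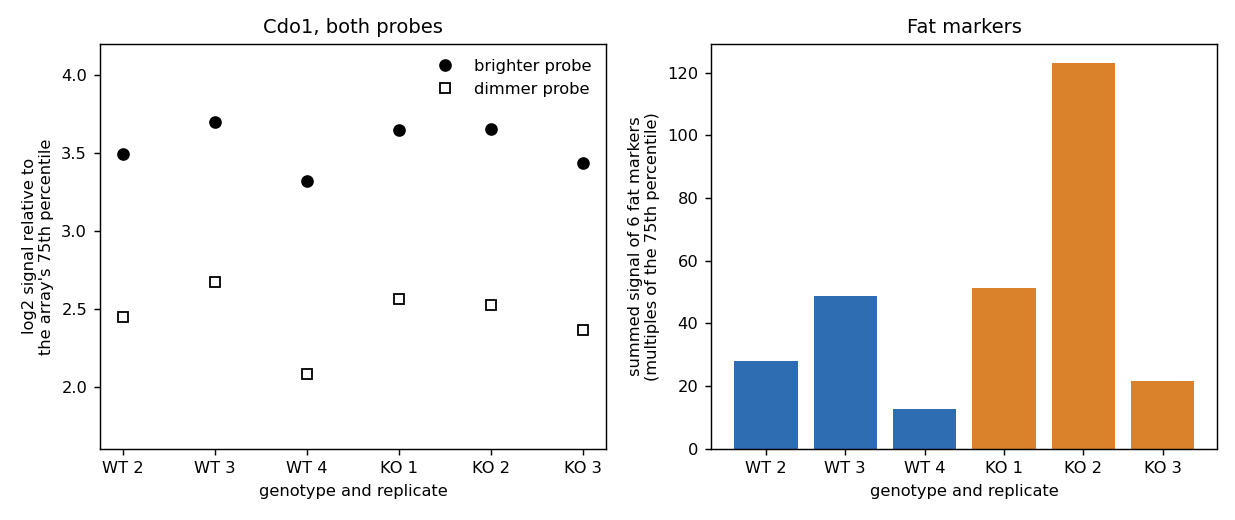
Left, log2 signal of both Cdo1 probes relative to the array's 75th percentile (filled circles, brighter probe; open squares, dimmer probe) on each array. Right, summed signal of 6 fat markers in multiples of the 75th percentile (WT blue, Selenbp1-KO orange). WT replicate 4, at 12.8, and Selenbp1-KO replicate 3, at 21.7, are the lowest arrays of the marker sum and of both Cdo1 probes. The sum is highest in Selenbp1-KO replicate 2, and both Cdo1 probes are highest in WT replicate 3.

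The methyltransferase genes stand on the methanethiol side of the pathway. Mettl7b, a membrane-bound enzyme first known from lipid droplets, had 2.88, 2.90, and 2.81 in WT and 3.07, 2.84, and 2.94 in Selenbp1-KO mice. Selenbp1-KO replicate 1 was the highest array and replicate 2 lay among the WT arrays. The difference was 0.09 (95% interval -0.17 to 0.35, limma adjusted p = 0.715). Mettl7a1 was read by 3 probes that did not point one way: the brightest, annotated to XM_011245728 (chr15:100158989-100159048), had -2.87, -2.99, and -2.83 in WT and -2.78, -2.97, and -2.74 in Selenbp1-KO mice, with a difference of 0.07 (95% interval -0.21 to 0.34, limma adjusted p = 0.800). A second probe of the same model differed by -0.09 (95% interval -0.41 to 0.23, limma adjusted p = 0.768). The probe of the RefSeq mRNA NM_027334, the sequence shown above with a GC content of 15.0%, was not well above background in either genotype, so the level of that transcript is not given by these arrays. Whether the XM_011245728 probes read Mettl7a1 mRNA or a neighboring gene model was not tested, and their values are those of probes that the files name Mettl7a1.

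The close paralogs of Mettl7a1 follow it along chromosome 15. Mettl7a2 (chr15:100192018-100192077) had 6.23, 6.14, and 6.42 in WT and 6.17, 6.33, and 6.21 in Selenbp1-KO mice, and its highest array, WT replicate 4, and its lowest, WT replicate 3, were both WT. Mettl7a3 (chr15:100170516-100170575) had -1.85, -1.42, and -1.73 in WT and -1.76, -1.42, and -1.73 in Selenbp1-KO mice, nearly the same 3 values. The difference was -0.03 for Mettl7a2 (95% interval -0.32 to 0.26, limma adjusted p = 0.928) and 0.03 for Mettl7a3 (-0.36 to 0.43, limma adjusted p = 0.946). Whether the probes tell these paralogs apart was not tested.

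Over the 10 genes, 7 differences were above 0 and 3 below, and the median was 0.07, with a range from -0.10 to 0.37. After quantile normalization 6 were above 0 and 4 below. The median was 0.13 over all 36778 gene names and 0.02 over the 19169 names well above background. The genotypes did not overlap in 0 of the 10 members, compared with 14.1% of all names and 19.0% of those well above background. By Benjamini–Hochberg adjusted p under 0.05 (limma), 0 member probes passed, against 0.00357% of all 56097 probes tested, the 2 probes of Selenbp1 and Selenbp2. Among the brightest probes of the members, the lowest adjusted p was that of Mpst.

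**Figure D5:**
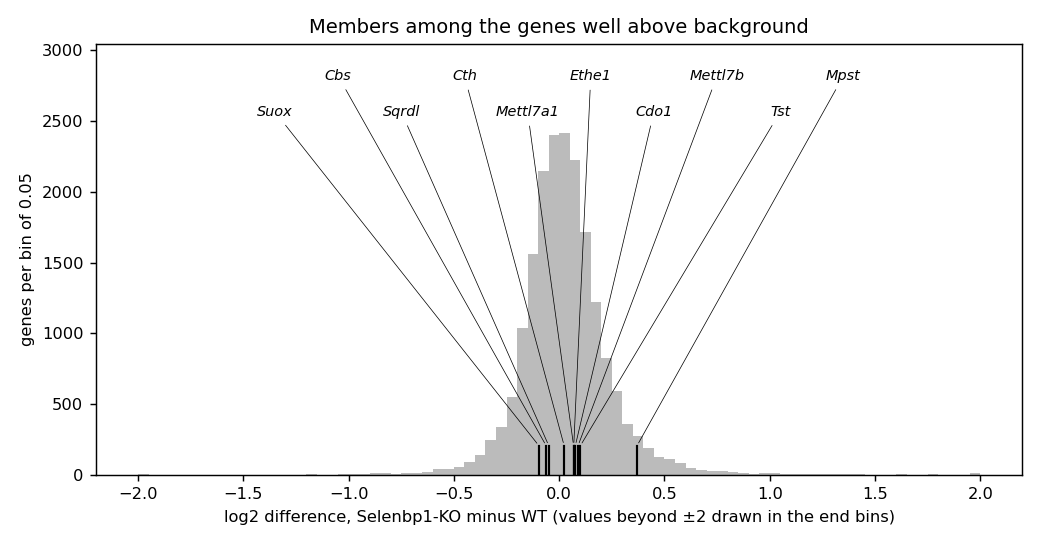
Histogram of the log2 difference, Selenbp1-KO minus WT, for the 19169 gene names well above background on every array of a genotype, in bins of 0.05. Lines with names mark the 10 members. Apart from Mpst at 0.37, they lie between -0.10 and 0.10, within the central mass of the histogram.

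The surroundings of the pathway were described by 37 further genes in 6 lists. None passed the threshold in limma (0 of 37), against 7.99% of all gene names and 5.80% of those well above background. The same shares stand beside the counts of the single lists below. The methods' t-test, unadjusted, called 3 of them, Csad, Txn2, and Papss2, against 7.09% of all probes. After adjustment it called none of these 3. The median difference was 0.01, and 21 differences were above 0 and 16 below. Above 0 were also 25174 of all 36778 gene names and 10407 of the 19169 well above background. Of the 37 genes, quantile normalization changed the balance. After it, 14 of their differences were above 0 and 23 below. The genotypes did not overlap in 6 of the 37, Gnmt, Csad, Txn2, Mocs3, Slc26a1, and Papss2, which is 16.2%, against 14.1% of all gene names and 19.0% of those well above background.

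Methionine supplies the homocysteine that Cbs uses. None of the 10 genes of the methionine cycle passed, and the median difference was 0.01. Bhmt, which returns homocysteine to methionine with betaine, had the largest difference of the list. The brightest probe read 1.93, 1.76, and 1.27 in WT and 0.56, 1.25, and 1.50 in Selenbp1-KO mice, so the 2 highest arrays were WT replicates 2 and 3 of row 1. The difference was -0.55 (standard error 0.29, limma adjusted p = 0.330) and was -0.17 with the array row as a block. Without Selenbp1-KO replicate 1, the lowest array, it was -0.28. A second Bhmt probe differed by -0.59 (limma adjusted p = 0.279), and the remaining one was not well above background. Gnmt, which uses methyl groups of S-adenosylmethionine to methylate glycine, had 2.14, 2.02, and 2.04 in WT and 2.32, 2.20, and 2.16 in Selenbp1-KO mice. All 3 Selenbp1-KO values were above the WT values, and the difference of 0.16 (standard error 0.10) had an adjusted p = 0.436 (limma).

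Downstream of Cdo1, Csad decarboxylates cysteine sulfinate on the way to taurine. It had 4.72, 4.65, and 4.69 in WT and 4.79, 4.78, and 4.85 in Selenbp1-KO mice, without overlap. The difference of 0.12 (standard error 0.09) had an adjusted p = 0.538 (limma). None of the 4 genes of this list passed, and Gadl1 among them was well above background on 0 arrays.

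Of the 9 genes of sulfur transfer and cysteine transamination, none passed, and the median difference was 0.02. Tstd3 had 0.24, 0.27, and 0.42 in WT and 0.52, 0.42, and 0.57 in Selenbp1-KO mice, a difference of 0.19 (limma adjusted p = 0.357). It was 0.08 with the array row as a block. The next list holds 4 genes, those of the thioredoxins, which reduce the persulfide on Mpst, and of the thioredoxin reductases. The mitochondrial thioredoxin Txn2 had 5.62, 5.64, and 5.67 in WT and 5.82, 5.73, and 5.70 in Selenbp1-KO mice. Its genotypes did not overlap, and the difference was 0.11 (limma adjusted p = 0.600). Txnrd1, the cytosolic thioredoxin reductase and a selenoprotein, differed by -0.19 (limma adjusted p = 0.489).

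The last list holds the genes that make the molybdenum cofactor of Suox and those that move or activate its product sulfate. Papss2, which makes the activated sulfate donor for sulfation, had 6.04, 5.93, and 6.06 in WT and 5.78, 5.79, and 5.90 in Selenbp1-KO mice. All 3 Selenbp1-KO values were below the WT values. The difference was -0.19 (standard error 0.10, 95% interval -0.44 to 0.05, limma adjusted p = 0.321), and it passed the unadjusted threshold under 6 of 19 alternatives, with an adjusted p no lower than 0.286. A second Papss2 probe differed by -0.25 (limma adjusted p = 0.406). The sulfate transporter Slc26a1 had 1.80, 1.79, and 1.79 in WT and 1.75, 1.61, and 1.71 in Selenbp1-KO mice, a difference of -0.10 (limma adjusted p = 0.614). Slc13a1, the sodium-dependent sulfate carrier of the proximal tubule, differed by -0.17 (limma adjusted p = 0.591), and its genotypes overlapped. Mocs3, a cofactor synthesis gene that itself carries a rhodanese domain, had 1.19, 1.21, and 1.15 in WT and 1.31, 1.23, and 1.39 in Selenbp1-KO mice, a difference of 0.13 (limma adjusted p = 0.533).

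The arrays as a whole set the frame for these values. All 6 lie on 1 slide with the same scan time. The 75th percentile of the signal was 711 and 751 units on the 2 WT arrays of row 1, and 477 to 584 on the 4 arrays of row 2. Spots well above background were 55.4% and 55.5% in row 1 and 51.8% to 53.4% in row 2. The Selenbp1 probe had 7.07, 7.02, and 7.02 in WT and 4.13, 3.98, and 4.10 in Selenbp1-KO mice, so the labels match the targeted gene, and its difference was -2.96 (limma adjusted p = 0.00210). The probe of its paralog Selenbp2 differed by -3.22. Whether that probe also reads Selenbp1 transcripts was not tested, so this value is not given as a change of Selenbp2 mRNA. The Selenbp1 probe stayed well above background on all 3 Selenbp1-KO arrays. What it reads there was not tested either, so its difference is that of the probe signal. All markers of proximal tubule (7), distal nephron (6), and podocytes (4) were well above background and 0 of these 17 passed the threshold (limma). In contrast, 3 of 3 red blood cell markers and 3 of 5 macrophage markers were higher in the knockout kidneys by the unadjusted limma test (lowest adjusted p = 0.279). Of all gene names 7.99% passed that test, and 2525 of these 2940 names were higher in the knockout kidneys. The summed red blood cell markers were 254 to 341 in WT and 360 to 535 in Selenbp1-KO mice, the macrophage markers 9.47 to 11.2 and 11.3 to 12.2. Of 6 adrenal markers 3 were well above background on no array. The part of these cells in the members' values was not tested.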

How the data were processed

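Kidney RNA of 3 WT and 3 Selenbp1-KO mice was measured on 6 one-color arrays of 62976 spots, with 56605 probes that are not controls. The linear intensity used was background-subtracted and detrended within each array by Feature Extraction before the authors deposited it, and was not normalized between arrays. The p-value of each spot against its background was computed by the same software, per the file headers. The headers give version 10.7.1.1, and the submitters' processing notes name Agilent Feature Extraction 9.5.1.1. The labels and the methods name different RNA extraction kits. The authors also deposited quantile normalized linear intensities, 1 column per array.

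Spots flagged as outliers were left out, log2 signals were taken relative to each array's 75th percentile over non-control spots, and the 56097 probes detected at p under 0.05 on 1 or more arrays entered a two-sided limma test (lmFit, then eBayes; version 3.58.1 under R 4.3.3). As the methods do, a gene was called at an unadjusted p under 0.05, with Benjamini–Hochberg adjustment over all probes beside it. Intervals are 95% intervals of the moderated statistic. Names and mm9 coordinates are those of the files, and a gene is read by its brightest probe over the 6 arrays. Probe sequences are those of the files. The members and gene lists were chosen with earlier results of these data known. The text names every member with its probes, the target and its paralog, and those of the wider lists that describe a role, had genotypes that did not overlap, or were called under an alternative. The fit was tested on simulated data: where 200 of 56097 probes were shifted by 1 log2 unit, 87.4% of these were found, and 5.46% of the unshifted probes were called. The largest difference of a member was 0.37, so this share does not describe changes of the members' size. The number of arrays limits the precision, and 3 against 3 allows no exact permutation p under 0.10. Each array is a mouse by the labels. Alternatives changed the background correction (normexp, offset 50), the scaling, the filter, flagged spots, the variance model (statmod version 1.5.0), the test, the slide row or replicate number as a block, each array in turn, the probes of a gene, their naming, and the threshold. The study's RT-PCR, metabolite, and enzyme data were not used here.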

Additional observations from a re-analysis of the deposited data

How the results depend on the processing

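The count of members past the threshold was 0 of 10 under normexp background correction, median scaling, both other filters, flagged spots kept, trend and robust variances, the methods' t-test, the slide row as a block, the mean of all probes, accession names, and an adjusted threshold. It was 2 (Suox and Sqrdl, lower) with quantile normalization and 2 with the authors' values, which called 8.35% and 8.36% of all probes. Leaving out 1 array gave 0 to 1 (Mpst, higher, without WT replicate 4). Over the 37 wider genes it was 2 with normexp (Bhmt, Papss2; 11.3% of all probes), 4 with quantile normalization and 4 with the authors' values (Tstd3, Mocs3, Slc26a1, Papss2), 1 with median scaling (Gadl1; 26.1% of all probes), 1 with the stricter filter (Papss2; 9.96%), 3 with trend and robust variances (Tstd1, Txnrd1, Papss2; 13.4%), 3 with the methods' t-test (7.09%), and 0 to 2 on leaving out 1 array (Gadl1 and Tstd1 without WT replicate 4, 31.3% of all probes; Mat1a without Selenbp1-KO replicate 1, 5.76%). The replicate numbers 2 and 3 are shared between the genotypes but the labels do not tie them to mice. The deviations of these pairs correlated by 0.171 and 0.187 over 28515 probes. Some pairs of unlike numbers came close (0.186 for WT replicate 3 with Selenbp1-KO replicate 1, 0.161 for WT replicate 4 with Selenbp1-KO replicate 2), and the remaining pairs of unlike numbers had negative correlations. With a replicate block on these 4 arrays, 1 member (Mpst, a difference of 0.676) and 2 wider genes (Mat1a, Gadl1) passed, in a fit that called 32.9% of all probes.

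Signs turned in 9 of 190 comparisons of members with alternatives, none past the threshold. Cth was -0.0127 with quantile normalization, -0.0119 with the authors' values, -0.0725 with the replicate block, and -0.0385 to 0.088 on leaving out 1 array. Mpst was -0.0113 with the slide row as a block, Sqrdl 0.142 as the mean of all probes, and Cdo1 -0.0507 with the replicate block and -0.0161 to 0.174 on leaving out 1 array. The Mpst estimate rests on WT replicate 4 as the only WT array of row 2. The Sqrdl mean includes the probe that was well above background on no array, and the other Sqrdl probes differed by -0.0487 and -0.0751. Among wider genes, the slide row as a block gave -0.0601 for Tstd1, -0.158 for Tstd2, and 0.078 for Mat1a. The replicate block gave 0.085 for Mettl7a2 and 0.766 for Mat1a, and normexp 0.157 for Mat1a. Gadl1 was -0.00852 with quantile normalization and -0.00851 with the authors' values. On leaving out 1 array, Mettl7a2 ranged from -0.0909 to 0.0508, Mettl7a3 from -0.0759 to 0.153, and Mat1a from -0.808 to 0.86. Apart from what enters the Mpst and Sqrdl estimates, the cause of these shifts was not tested. The lowest adjusted p of a member under any alternative was 0.0644 (Mpst without WT replicate 4). Among the wider genes named it was 0.049 (Gadl1 without WT replicate 4), from a probe that was not well above background.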
